A study of Mus musculus with 4 samples.

Results

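The Zfp genes are the mouse genes named for a zinc finger protein and a number, and they were taken as every row of the deposited expression table whose symbol begins with Zfp and a digit, with Zfp42 left out. The rule found 334 of the 15429 genes in the table. It reads symbols only, but the family was chosen with earlier results of these data known. Mouse epiblast stem cells were given esiRNA against Tox4 (2 libraries) or, as the control, esiRNA against Luc (2 libraries), and their poly(A) RNA was sequenced. Both groups were the Oct4-GFP line OE7, which carries the Oct4-Gip transgene and was derived from the post-implantation mouse embryo. All cells were at passage 21 to 25, grown on fibronectin with Activin A at 20 ng/ml and Fgf2 at 12 ng/ml, and transfected with 1000 ng of esiRNA and 2 µl of lipofectamine. An esiRNA is a pool of short interfering RNAs cut from a long double-stranded RNA. The series title places the work within a study of how Oct4 is regulated, and the comparison asks which transcripts differ when Tox4, which encodes an HMG-box protein of a phosphatase complex, is knocked down. The labels give 1 cell line and do not say whether libraries came from separate cultures, so that p-values measure the spread between libraries, which may be technical.

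Most proteins of this family bind DNA through C2H2 zinc fingers, small folds in which a pair of cysteines and a pair of histidines hold a zinc ion. Tandem fingers read out a longer DNA sequence, and many family members arose by gene duplication in clusters along the chromosomes. A large group also has a KRAB domain at the amino end, which recruits the scaffold protein Trim28 and, through it, the histone methyltransferase Setdb1, so that the bound locus is silenced. In pluripotent cells these repressors are known for silencing retroelements and for keeping DNA methylation at imprinted genes. Members without a KRAB domain have other tasks, among them transcriptional activation, mRNA decay and ribosome maturation.

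Promoter sequence is shown for the called genes whose known regulators have defined DNA motifs, Zfp365 and Zfp385a, which are p53 targets, and Zfp36, an immediate early gene, and for Zfp958, the called gene with a KRAB-like stretch. These 4 were chosen after their values were seen. Each window is the 250 bases before the RefSeq start on GRCm38.p6, written 5′ to 3′ on the strand of the gene. Capitals mark the GC box (GGGCGG), the E-box (CACGTG) and the CArG box, the last being the site of serum response factor. Zfp365 lies on the minus strand with its window at chr10:67912663-67912912, Zfp385a on the minus strand at chr15:103340087-103340336, Zfp36 on the minus strand at chr7:28379229-28379478, and Zfp958 on the plus strand at chr8:4612920-4613169.
Zfp365: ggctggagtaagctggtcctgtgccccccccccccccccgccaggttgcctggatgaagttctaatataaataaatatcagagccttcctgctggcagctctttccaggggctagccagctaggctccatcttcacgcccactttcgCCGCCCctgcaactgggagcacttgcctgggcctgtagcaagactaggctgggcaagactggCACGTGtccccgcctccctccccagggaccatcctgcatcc
Zfp385a: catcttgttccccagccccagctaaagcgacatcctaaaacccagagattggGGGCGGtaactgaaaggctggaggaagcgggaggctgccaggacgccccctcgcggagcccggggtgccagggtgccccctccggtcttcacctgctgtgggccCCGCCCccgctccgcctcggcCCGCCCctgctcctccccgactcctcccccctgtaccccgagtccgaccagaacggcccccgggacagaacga
Zfp36: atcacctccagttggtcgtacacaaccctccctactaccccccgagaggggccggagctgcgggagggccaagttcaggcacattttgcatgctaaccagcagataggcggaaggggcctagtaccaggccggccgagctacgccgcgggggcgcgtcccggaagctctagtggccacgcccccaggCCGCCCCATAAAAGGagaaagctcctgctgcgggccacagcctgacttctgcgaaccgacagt
Zfp958: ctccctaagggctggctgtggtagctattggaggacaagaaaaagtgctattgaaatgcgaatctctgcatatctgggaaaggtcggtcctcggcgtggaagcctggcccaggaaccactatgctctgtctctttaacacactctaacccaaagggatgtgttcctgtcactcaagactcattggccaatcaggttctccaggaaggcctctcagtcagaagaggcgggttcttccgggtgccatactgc

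The search covered both strands and also took in the p53 half-site and the cAMP response element (TGACGTCA). The Zfp365 window held 1 GC box and 1 E-box, the Zfp385a window 3 GC boxes, and the Zfp36 window 1 GC box that shares its last base with 1 CArG box. The Zfp958 window held none of the motifs, and no window held a p53 half-site or a cAMP response element. Among the 32851 RefSeq promoter windows of this length, 32.7% held a GC box, 6.02% an E-box, 1.47% a CArG box, 7.13% a p53 half-site and 1.55% a cAMP response element. In the family, 333 windows matched the symbols of 272 members. A GC box stood in 29.9% of the windows of genes with a KRAB-like stretch and in 56.4% of those of the other members. A match is a description of the letters and not evidence of a bound site.

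The family was assigned to structural classes from the longest GENCODE coding sequence of each gene. Of the 334 genes, 332 were found in GENCODE, of which 327 are annotated as protein coding and 5 as pseudogenes, and 326 could be translated. A stretch resembling the core of the KRAB A box was found in 175 genes, and 151 had none, while 8 had no coding sequence to search. Zfp319 is listed under a pair of identifiers, each counted as a member. The median number of C2H2 fingers was 12 in the KRAB-like members and 7 in the others. The most fingers, 36, were found in Zfp142. No C2H2 finger was found in 13 members, among them Zfp36, Zfp36l1 and Zfp36l2, whose fingers are of the CCCH type and bind RNA, and Zfp365. The coding sequence had a median GC content of 43.5% in the KRAB-like members and 54.3% in the others. By chromosome, the largest numbers of members were 81 on chromosome 7, 41 on chromosome 17, 32 on chromosome 13 and 22 on chromosome 8. Of these, 47, 35, 26 and 14, in the same order, had a KRAB-like stretch.

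Most Zfp genes were expressed at low but measurable levels. FPKM, the unit of the deposited values, scales the reads of a gene to its counted length and to the depth of the library, so that levels can be set side by side between genes. The median of the mean over the 4 libraries was 4.88 FPKM in the family and 7.92 FPKM in the rest of the table. Only 8.08% of members averaged under 1 FPKM, against 19.9% of the rest, whereas 51.5% averaged under 5 FPKM, against 41.0% of the rest. At the upper end 30 members, or 8.98%, reached 20 FPKM, against 27.5% of the rest. Summed over all members, the level was 2735 and 2697 FPKM in the Tox4 esiRNA libraries and 2673 and 2689 FPKM in the Luc esiRNA libraries, a log2 ratio of 0.02. All members together took between 0.942% and 0.981% of the reads assigned to genes of the table in a library.

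**Figure D1:**
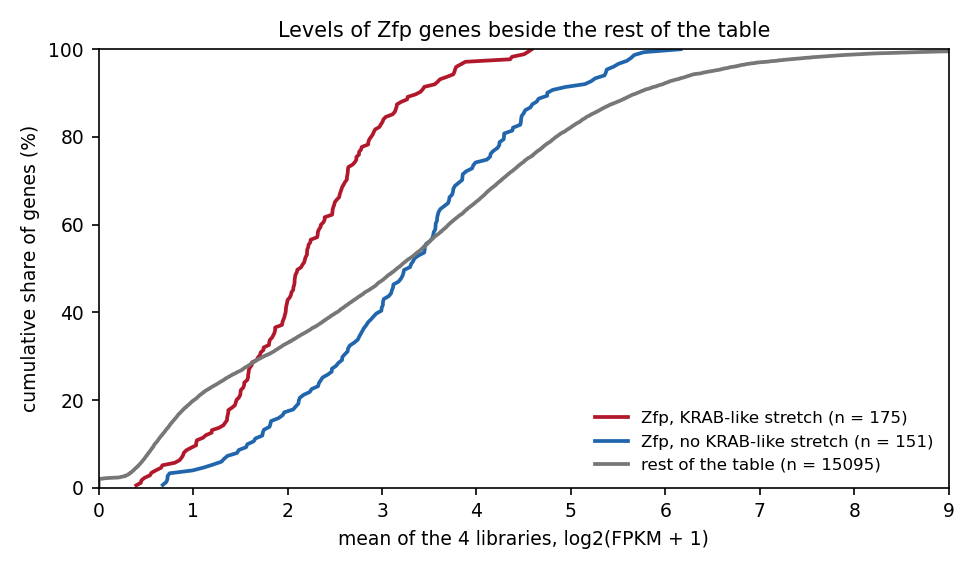
Cumulative share of genes (percent, vertical) against the mean level over the 4 libraries as log2(FPKM + 1) (horizontal), for the 175 KRAB-like Zfp genes (red), the 151 other Zfp genes with a coding sequence (blue) and the 15095 genes outside the family (grey). The red curve reaches its midpoint at a median of 3.42 FPKM and the blue one at 8.82 FPKM, and the grey curve runs on to far higher levels than either.

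The low levels lay mainly with the KRAB-like members. Their median was 3.42 FPKM, 68.6% of them were under 5 FPKM and 3 reached 20 FPKM. The other members had a median of 8.82 FPKM, with 29.8% under 5 FPKM and 27 at 20 FPKM or more. The highest KRAB-like member was Zfp445, which keeps imprints in the early embryo, with a mean of 23.0 FPKM. Its library range overlapped that of Zfp57, also KRAB-like, so that the rank is not settled. Zfp445 averaged 23.9 FPKM with Tox4 esiRNA and 22.1 FPKM with Luc esiRNA, and Zfp57 averaged 20.8 and 24.0 FPKM. Members on chromosome 13, of which 26 of 32 were KRAB-like, had a median of 2.31 FPKM and none reached 20 FPKM. Levels differed with the number of fingers, but in no single order. The median was 6.67 FPKM for the 13 members with no C2H2 finger found, 13.4 FPKM for the 41 members with 1 to 4 C2H2 fingers, 5.69 FPKM for the 93 with 5 to 9, and 3.99 FPKM for the 179 with 10 or more. In the KRAB-like members the medians were 3.30 FPKM for the 39 genes with 5 to 9 fingers and 3.42 FPKM for the 131 with 10 or more, with only 3 genes at 1 to 4. In the others the medians were 13.4, 8.76 and 6.59 FPKM for 38, 54 and 48 genes in the order of the finger classes from 1 to 4 upward. These are descriptions over genes, many of them paralogs.

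**Figure D2:**
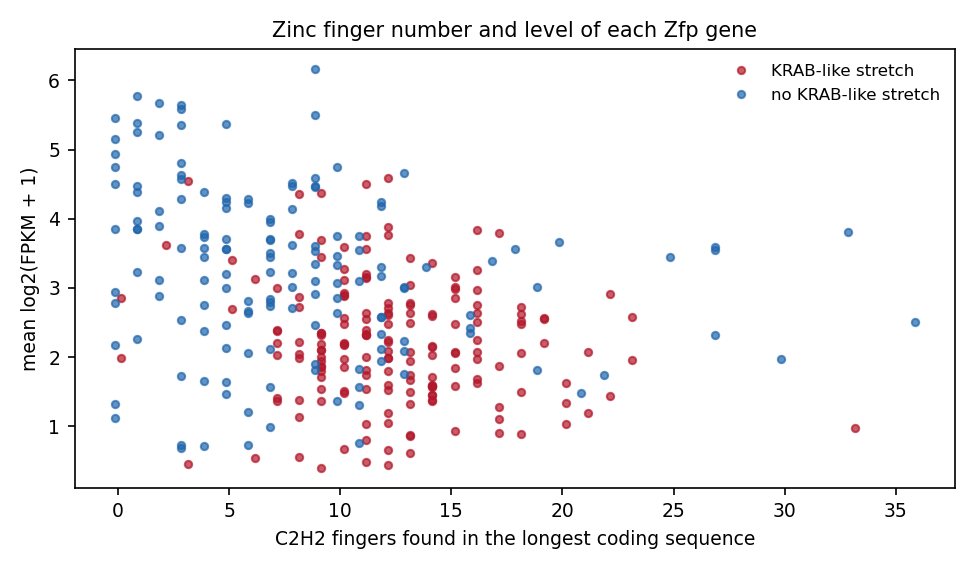
Mean level over the 4 libraries as log2(FPKM + 1) (vertical) against the number of C2H2 fingers found in the longest coding sequence (horizontal), 1 point per Zfp gene, red for KRAB-like members and blue for the others. Points with fewer than 5 fingers are mostly blue and span nearly the whole range of levels, and most points with 10 or more fingers are red and low, around the median of 3.42 FPKM.

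The 10 most abundant members all lacked a KRAB-like stretch. Zfp219, a transcription factor reported to associate with the pluripotency network, was first, with 73.9 and 77.5 FPKM in the Tox4 esiRNA libraries and 63.7 and 67.1 FPKM in the Luc esiRNA libraries. Its libraries lay above all those of the next gene, Zfp428, which had 47.1 and 52.6 FPKM with Tox4 esiRNA and 57.7 and 57.3 FPKM with Luc esiRNA. Zfp207, a spindle assembly protein, had 50.5 and 49.5 FPKM with Tox4 esiRNA and 50.1 and 49.4 FPKM with Luc esiRNA. Zfp106, an RNA-binding protein, Zfp512, Zfp664, Zfp330, Zfp598, Zfp692 and Zfp622 followed, with means between 48.7 and 40.0 FPKM. The library ranges of neighbours in this order overlapped, except between Zfp219 and Zfp428, Zfp512 and Zfp664, and Zfp330 and Zfp598.

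Some of the levels rest on little counted sequence. From the deposited values the length over which reads were counted could be worked back for each gene. It was under 10% of the annotated exon length for 19 KRAB-like members (10.9%), for 4 of the other members (2.65%) and for 8.23% of genes in the rest of the table. Zfp433, a KRAB-like gene, was listed at 10.9 and 13.8 FPKM in the Tox4 esiRNA libraries and at 12.6 and 13.9 FPKM in the Luc esiRNA libraries, but this came from 10, 11, 15 and 13 reads over 61 bases. Zfp781 had 5.52 and 0 FPKM with Tox4 esiRNA and 8.57 and 10.9 FPKM with Luc esiRNA, from at most 2 reads per library over 12 bases. Such reads and lengths are the smallest whole numbers that give the deposited values. A shared multiple of both would give the same values. Among KRAB-like members with a counted length of at least 500 bases, the median was 3.54 FPKM and 68.2% were under 5 FPKM, close to the values for all of them. Zfp82 was listed at 0 in every library. Exons of 106 members overlap those of another gene, 84 of them on the opposite strand. Whether the counting used strand, and how reads shared by paralogs were assigned, is not given in the sources used here.

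The reads worked back for all genes in the table summed to between 12778044 and 19008803 per library. This was 97.7% of the depth worked back for the scaling of each library. Tox4 itself was at 8.65 and 8.89 FPKM in the Tox4 esiRNA libraries and at 16.7 and 17.5 FPKM in the Luc esiRNA libraries, which is -0.89 ± 0.05 on the log2 scale (SE; adjusted p = 0.00228 with limma). All 6 epiblast stem cell markers examined (Pou5f1, Sox2, Nanog, Fgf5, Otx2 and Dnmt3b) were above 1 FPKM in the mean, and neither of the 2 naive markers in the table was. All 4 fibroblast markers (Col1a1, Col1a2, Thy1 and Pdgfrb) also passed 1 FPKM, with sums of 17.6 and 18.2 FPKM with Tox4 esiRNA and 19.5 and 19.8 FPKM with Luc esiRNA, as did 1 of 2 trophoblast markers in the table and neither of 2 for extraembryonic endoderm. The epiblast markers summed to 1053 and 1082 FPKM with Tox4 esiRNA and to 1067 and 1049 FPKM with Luc esiRNA. The mitochondrial share of reads was 1.05% in both Tox4 esiRNA libraries and 0.864% and 0.840% in the Luc esiRNA libraries. The part of these markers and of the mitochondrial share in any result below was not tested.

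Few Zfp genes passed the test with Tox4 knockdown, and the family median was near 0. Of the 307 members with a mean of at least 1 FPKM, 4 were higher and 2 were lower at an adjusted p under 0.05 (limma on log2(FPKM + 1), Benjamini-Hochberg over the 12403 genes tested). Over all genes tested, 1.89% were called higher and 2.62% lower, so that the family had 1.30% and 0.651% against these backgrounds. Its median log2 fold change was 0.01, with quartiles of -0.06 and 0.10, and that of the rest of the tested genes was -0.0036. A log2 fold change within 0.1 of 0 was found for 58.0% of tested members, against 59.2% of all tested genes. At an unadjusted p under 0.05, 28 members were higher (background 10%) and 12 lower (background 11.5%). Both Tox4 esiRNA libraries lay above both Luc esiRNA libraries in 86 members, 28.0% of those tested against a background of 25.3%, and below them in 49, which is 15.96% against 26.7%. Of the 27 members not tested, the one closest to the filter was Zfp133-ps at 0.993 FPKM, and the lowest one tested was Zfp953 at 1.02 FPKM. Members were measured with less precision than other genes, with a median of 265 reads and a median SE of 0.08 on the log2 scale, against 559 reads and 0.06 in the rest of the tested genes. In bulk samples such as these, fewer cells of a type and less RNA per cell cannot be told apart.

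**Figure D3:**
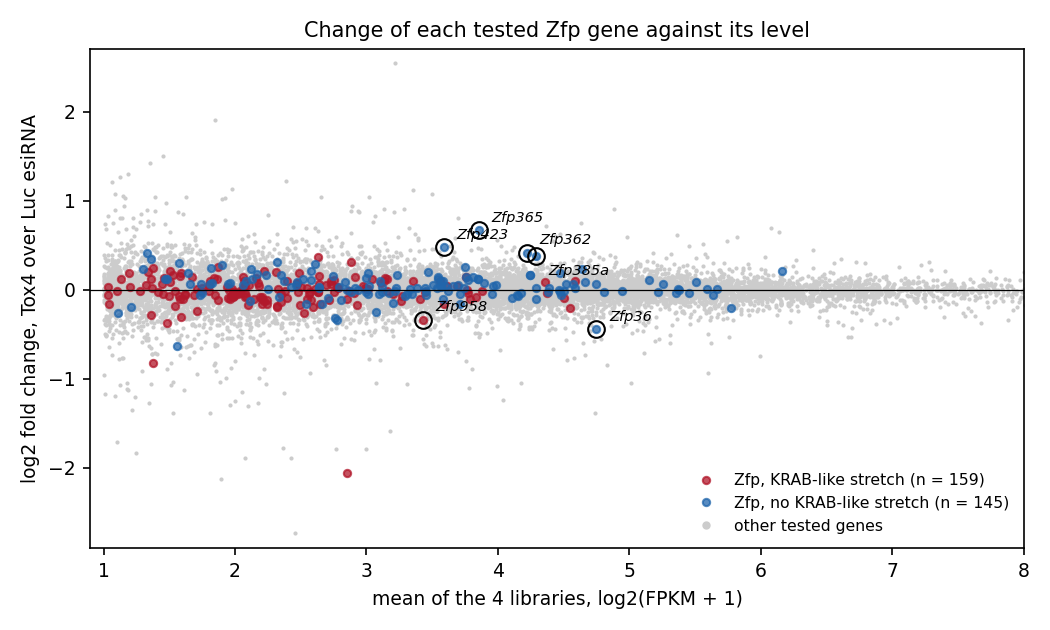
Fitted log2 fold change of Tox4 over Luc esiRNA (vertical) against the mean level as log2(FPKM + 1) (horizontal) for the 159 tested KRAB-like Zfp genes (red), the 145 other tested Zfp genes with a coding sequence (blue) and the other tested genes (grey, a few of which lie beyond the right edge). The 6 genes past the threshold are circled, and the red point at -2.06 is Zfp781, which has at most 2 worked-back reads per library.

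KRAB-like members had 0 genes higher (background 1.89%) and 1 lower (background 2.62%) of 159 tested with limma, and a median log2 fold change of -0.01. With limma at an unadjusted p under 0.05, 6 were higher (background 10%) and 6 lower (background 11.5%). A positive value was found in 44.7% of the KRAB-like members, and voom, described below, called 1 higher (background 5.97%) and 3 lower (background 5.87%). The 145 other tested members had 4 higher (2.76%) and 1 lower (0.690%) with limma. Their median was 0.03, and 63.4% were positive, against 48.8% over all tested genes. The median level of these other members overlapped between groups, with log2(FPKM + 1) of 3.39 and 3.34 with Tox4 esiRNA and 3.36 and 3.33 with Luc esiRNA. Their median log2 fold change was 0.016 among those of at least 5 FPKM, and between 0.028 and 0.049 with 1 library left out. The libraries did not overlap in 28 KRAB-like members (17.6%) that were above and 30 (18.9%) that were below with Tox4 esiRNA. In the others these numbers were 58 (40.0%) and 19 (13.1%), and the backgrounds were 25.3% above and 26.7% below. Summed levels were 812 and 790 FPKM with Tox4 esiRNA against 815 and 811 FPKM with Luc esiRNA for the KRAB-like members, and 1913 and 1897 FPKM against 1849 and 1868 FPKM for the others. GC content moved with this difference. Outside the family, 42.7% of tested genes with a coding GC content under 45% and 51.2% of those at 50% or more had a positive value. In the same GC ranges the positive share was 35.8% of 95 KRAB-like members under 45%, 52.2% of 23 other members under 45%, and 63.6% of 99 other members at 50% or more. Over all 159 KRAB-like members this share was 44.7%, so that those at 45% or more had a higher share than those under 45%. Neither the difference between the classes nor the part of GC content in it was tested, since members are not replicates. The KRAB-like median was 0.011 without Luc replicate 1, 0.0020 without Tox4 replicate 2 and 0.0071 among members of at least 5 FPKM, so that its sign is not settled.

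**Figure D4:**
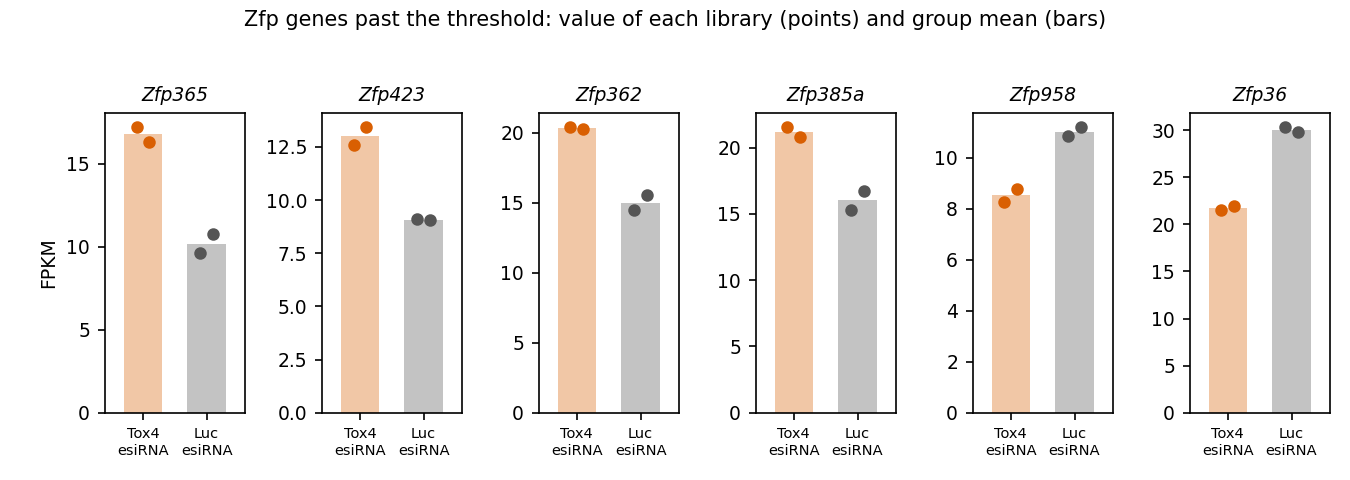
FPKM (vertical) of the 6 Zfp genes past the threshold, in the Tox4 esiRNA libraries (orange, left) and the Luc esiRNA libraries (grey, right), with 1 point per library and a bar from 0 to the mean of 2 libraries. In every panel the groups do not overlap, with Zfp365, Zfp423, Zfp362 and Zfp385a above and Zfp958 and Zfp36 below in the Tox4 esiRNA libraries.

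Zfp365 had the largest change of the called members. Its product protects genome stability at telomeres and fragile sites, and the gene is a p53 target. It is on chromosome 10, minus strand, with 17.2 and 16.3 FPKM in the Tox4 esiRNA libraries and 9.62 and 10.8 FPKM in the Luc esiRNA libraries. Both Tox4 esiRNA libraries lay well above both controls, a log2 fold change of 0.67 (SE 0.07, adjusted p = 0.00932). Zfp385a, also called Hzf, is a p53 target whose product binds p53 and directs it toward cell cycle arrest genes. It had 21.5 and 20.8 FPKM with Tox4 esiRNA, against 15.3 and 16.8 FPKM with Luc esiRNA, and rose by 0.38 on the log2 scale (SE 0.06, adjusted p = 0.0270). Zfp346, whose product binds double-stranded RNA and is also linked to p53, did not pass, with 11.02 and 10.1 FPKM against 11.1 and 11.7 FPKM with Luc esiRNA (log2 fold change -0.10, adjusted p = 0.416). Zfp385b was under the filter, with 0.373 and 0.502 FPKM against 0.868 and 0.825 FPKM with Luc esiRNA. Outside the family, 10 of 14 p53 target genes on a list of known ones rose (background 1.89%) and 0 fell (background 2.62%), with a median log2 fold change of 0.33. That list was drawn up with these results known and is no independent evidence.

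Zfp423 and Zfp362 were the other members that rose. Zfp423 encodes a factor with 27 fingers found here that acts with Smad and Ebf proteins in brain and fat development. It had 12.6 and 13.4 FPKM with Tox4 esiRNA, against 9.09 and 9.08 FPKM with Luc esiRNA, a log2 fold change of 0.47 (SE 0.05, adjusted p = 0.0140). Zfp362, with 6 fingers found and no role stated here, had 20.4 and 20.3 FPKM with Tox4 esiRNA, against 14.5 and 15.5 FPKM with Luc esiRNA, a log2 fold change of 0.41 (SE 0.05, adjusted p = 0.0154). In both genes the groups were further apart than the libraries within them.

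Zfp36 and Zfp958 fell. Zfp36 encodes tristetraprolin, which binds AU-rich elements of cytokine and growth factor mRNAs and speeds their decay, and its own gene is switched on within minutes by serum. It had 21.5 and 22.0 FPKM with Tox4 esiRNA, against 30.3 and 29.8 FPKM with Luc esiRNA, and fell by 0.45 on the log2 scale (SE 0.04, adjusted p = 0.00704). The 2 libraries of each group nearly coincided. Its exons share 125 bases with Gm44710 on the opposite strand, and among the 210 tested members without such an overlap the number that fell was 1. Zfp36l1 and Zfp36l2, its paralogs, did not pass. Zfp36l1 had 35.9 and 35.5 FPKM with Tox4 esiRNA and 32.6 and 33.8 FPKM with Luc esiRNA (log2 fold change 0.10, adjusted p = 0.202). Zfp36l2 had 33.9 and 25.4 FPKM with Tox4 esiRNA and 27.7 and 31.8 FPKM with Luc esiRNA, and its groups overlapped (log2 fold change -0.01, adjusted p = 0.967). Among 17 immediate early genes outside the family, 1 rose (background 1.89%) and 4 fell (background 2.62%), with a median log2 fold change of 0.0025. Both Tox4 esiRNA libraries were above the controls in 8 of them (background 25.3%) and below in 8 (background 26.7%). Voom called 5 higher (background 5.97%) and 6 lower (background 5.87%). The one that rose, Btg2, is also among the p53 targets counted above, and this list too was drawn up with the results known. Zfp958, a KRAB-like gene with 13 fingers found and no role stated here, had 8.28 and 8.79 FPKM with Tox4 esiRNA, against 10.9 and 11.2 FPKM with Luc esiRNA (log2 fold change -0.34, SE 0.06, adjusted p = 0.0354). It was counted from 175, 161, 296 and 241 reads.

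The 6 calls depended on which library was left out, while the fold changes moved less. The log2 fold change of Zfp365 lay between 0.60 and 0.74 over these fits, that of Zfp423 between 0.43 and 0.52, that of Zfp362 between 0.37 and 0.46 and that of Zfp385a between 0.32 and 0.44. Those of Zfp36 and Zfp958 lay between -0.46 and -0.43 and between -0.37 and -0.30. With Luc replicate 1 left out, no member was called, and the adjusted p was 0.0517 for Zfp365, 0.0968 for Zfp423, 0.09997 for Zfp362, 0.137 for Zfp385a, 0.0576 for Zfp36 and 0.174 for Zfp958. Over all genes this fit called 0.218% higher and 0.274% lower. Without Luc replicate 2, Zfp365 was past the threshold, and the other 5 genes had adjusted p between 0.0582 for Zfp36 and 0.200 for Zfp958 (over all genes 0.226% higher and 0.282% lower). Without Tox4 replicate 1, Zfp385a (0.0548) and Zfp958 (0.0764) were not past it (over all genes 1.42% higher and 1.98% lower), and without Tox4 replicate 2 all 6 were (1.14% and 2.39%). In these fits the lone library is assumed to vary like the other group.

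A count-based fit, limma-voom on the reads worked back from FPKM, called more genes throughout. It called 16 members higher (background 5.97%) and 7 lower (background 5.87%), of which 4 and 2 were also called on log2(FPKM + 1). Of these 23 genes, 4 had a KRAB-like stretch, Zfp316 among the higher and Zfp57, Zfp160 and Zfp958 among the lower. The further higher ones without a KRAB-like stretch were Zfp750, Zfp536, Zfp597, Zfp521, Zfp628, Zfp46, Zfp710, Zfp281, Zfp629, Zfp219 and Zfp91, and the further lower ones were Zfp185, Zfp341 and Zfp428. Zfp750, a regulator of epidermal differentiation, had 1.73 and 2.00 FPKM with Tox4 esiRNA, against 1.28 and 1.03 FPKM with Luc esiRNA (log2 fold change 0.41, adjusted p = 0.128 on log2(FPKM + 1) and 0.0186 with voom). Zfp316 had 5.81 and 6.10 FPKM against 4.25 and 4.57 FPKM with Luc esiRNA and just missed the threshold on log2(FPKM + 1) (0.36, adjusted p = 0.0516). Zfp185, an actin-associated LIM protein gene, had 5.13 and 4.95 FPKM against 6.95 and 6.35 FPKM with Luc esiRNA (-0.34, adjusted p = 0.0577).

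Of the 5 most positive and 5 most negative fitted changes that did not pass, 5 stood on few reads and 5 (Zfp750, Zfp316, Zfp536, Zfp521 and Zfp185) on at least 48 in every library. Zfp781 (-2.06), Zfp937 (-0.83), Zfp775 (-0.63) and Zfp429 (-0.38) had the most negative log2 fold changes of the members that did not pass. None had more than 9 worked-back reads in any library. Zfp955a, at 0.30, had 24 and 16 reads with Tox4 esiRNA and 21 and 17 reads with Luc esiRNA over 196 bases. Among the tested members 11 averaged under 20 worked-back reads.

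**Figure D5:**
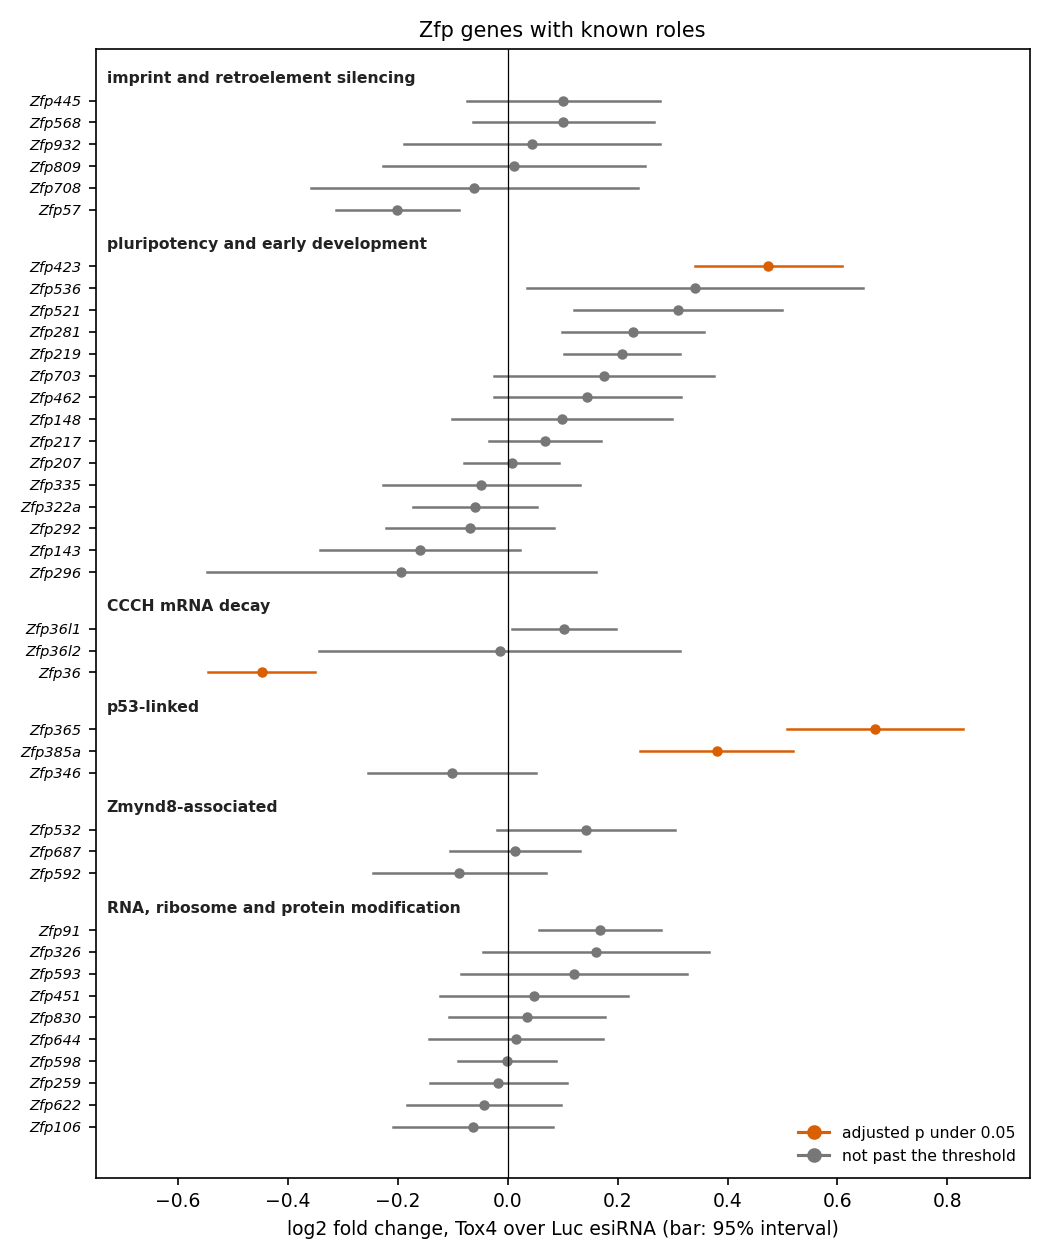
Fitted log2 fold change of Tox4 over Luc esiRNA (horizontal; bars are 95% intervals from limma) for the tested Zfp genes of 6 role groups, orange where the adjusted p was under 0.05. Zfp423, Zfp365 and Zfp385a lie to the right and Zfp36 to the left, and the intervals of most other genes include 0.

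The KRAB zinc finger genes known to silence imprinted loci and retroelements gave 0 calls of 6 tested with limma (background 1.89% higher and 2.62% lower). With limma 1 gene was lower at an unadjusted p under 0.05 (background 11.5%), and voom called it lower too (background 5.87%). That gene was Zfp57, which keeps methylation at imprinting control regions and had 20.6 and 20.9 FPKM with Tox4 esiRNA, against 24.7 and 23.3 FPKM with Luc esiRNA. Its groups did not overlap, and its log2 fold change was -0.20 (SE 0.05, adjusted p = 0.0693 with limma on log2(FPKM + 1) and 0.0111 with voom). Zfp445, the second imprint regulator, had 25.7 and 22.1 FPKM with Tox4 esiRNA and 21.9 and 22.4 FPKM with Luc esiRNA. Zfp568, which represses a placental Igf2 transcript, had 11.8 and 10.6 FPKM against 10.7 and 10.02 FPKM with Luc esiRNA. Zfp809 and Zfp932, which silence endogenous retroviruses, and Zfp708 had overlapping groups and log2 fold changes of 0.01, 0.04 and -0.06. Zfp819 was under the filter, with at most 0.676 FPKM.

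Their partners were expressed, and none was called in limma on the deposited values. The list of KRAB cofactors and heterochromatin genes held 35 symbols in 36 rows of the table, all averaging at least 1 FPKM. Limma called 0 higher (background 1.89%) and 0 lower (background 2.62%), and the median log2 fold change was 0.06. With limma 4 were at an unadjusted p under 0.05, Chd3, Chd4 and Suv39h1 higher (background 10%) and Dnmt3b lower (background 11.5%). A positive value was found in 27 of the 36 (48.8% over all tested genes). Both Tox4 esiRNA libraries were above both controls in 18 (background 25.3%) and below them in 2 (background 26.7%). The cofactor list was chosen with earlier results of these data known, so that these counts are no independent evidence. Trim28 had 296 and 307 FPKM with Tox4 esiRNA and 287 and 283 FPKM with Luc esiRNA (0.08, adjusted p = 0.265, and 0.10 with adjusted p = 0.0490 after quantile normalization). Setdb1 had 22.9 and 21.9 FPKM with Tox4 esiRNA and 21.2 and 21.3 FPKM with Luc esiRNA (0.07, adjusted p = 0.403). The extremes were Chd3, a remodelling ATPase, at 0.20 and Dnmt3b, the de novo DNA methyltransferase, at -0.13. With voom, Chd3 and Chd4 were called higher (background 5.97%) and Dnmt3b lower (background 5.87%).

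Of 15 tested members with known roles in pluripotency or early development, Zfp423 rose (background 1.89%) and none fell (background 2.62%) with limma. Voom called 5 higher (background 5.97%) and 0 lower (background 5.87%). Zfp281, which binds the NuRD complex and acts in the primed state of pluripotency, had 26.9 and 24.9 FPKM with Tox4 esiRNA and 21.4 and 22.4 FPKM with Luc esiRNA (log2 fold change 0.23, adjusted p = 0.0712 with limma and 0.00325 with voom). Zfp219, whose values are given above, had 0.21 and an adjusted p of 0.0549 with limma and 0.00740 with voom. Zfp521, a paralog of Zfp423 that promotes neural differentiation, had 4.38 and 4.70 FPKM with Tox4 esiRNA against 3.48 and 3.45 FPKM with Luc esiRNA (0.31, adjusted p = 0.0851 with limma and 0.00269 with voom). Zfp536, expressed in the developing brain, had 2.09 and 1.67 FPKM against 1.22 and 1.31 FPKM with Luc esiRNA (0.34, adjusted p = 0.192 with limma and 0.00623 with voom). In all 4 genes both Tox4 esiRNA libraries were above both controls, but voom had called these genes higher from the same libraries, so that this is no further evidence. Of the 15 members, both Tox4 esiRNA libraries were above both controls in 9 (background 25.3%) and below them in 2 (background 26.7%). This group of 15 was also chosen with earlier results of these data known, so that its counts are no independent evidence. The 3 neural progenitor markers Sox1, Pax6 and Nes, of which 2 reached 1 FPKM and none was at 0, summed to 62.3 and 64.3 FPKM with Tox4 esiRNA and to 58.4 and 57.5 FPKM with Luc esiRNA, and their part in these values was not tested. The group median was 0.10, and at the other end were Zfp143, a general promoter factor, at -0.16 and Zfp296, a Klf4 partner, at -0.19, both past no threshold. Zfp703, Zfp462, Zfp148 and Zfp217 had values between 0.07 and 0.18, and Zfp207, Zfp335, Zfp322a and Zfp292 between -0.07 and 0.01.

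Members with tasks in RNA, ribosomes and protein modification gave 0 calls of 10 with limma (background 1.89% higher and 2.62% lower). With limma 1 gene was higher at an unadjusted p under 0.05 (background 10%), and voom called it higher too (background 5.97%). That gene was Zfp91, an E3 ubiquitin ligase gene of the non-canonical NF-kappaB pathway, with 19.0 and 19.0 FPKM with Tox4 esiRNA and 17.2 and 16.5 FPKM with Luc esiRNA (0.17, adjusted p = 0.101 with limma and 0.0190 with voom). Zfp598, which ubiquitinates collided ribosomes, was among the least changed, with 40.1 and 41.0 FPKM against 40.9 and 40.4 FPKM with Luc esiRNA, and a 95% interval of the log2 fold change from -0.09 to 0.09. Zfp593 and Zfp622, which act in assembly of the large ribosomal subunit, had 0.12 and -0.04. The other 6, Zfp326, Zfp451, Zfp830, Zfp644, Zfp259 and Zfp106, lay between -0.06 and 0.16. Zfp532, Zfp592 and Zfp687, which bind the chromatin reader Zmynd8 together, gave 0 calls with limma, 0 at an unadjusted p under 0.05 and 0 with voom. At these backgrounds 0 calls among so few genes say little. Their log2 fold changes were 0.14, -0.09 and 0.01.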

How the data were processed

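RNA was sequenced in 2 Tox4 esiRNA and 2 Luc esiRNA libraries. The authors deposited FPKM values per gene; the submitters' processing notes name CASAVA 1.8, STAR 2.3.0e and the build GRCm38.p1. Which program and annotation counted the reads, and whether by strand, is not given in the sources used here. Whole reads were worked back from the deposited FPKM, since in 100% of genes the values were whole multiples (relative tolerance 1e-09) of the value of 1 read. For 4.37% of genes a common factor was chosen. The smallest reads that gave a whole length were taken, so that reads and length are lower bounds where both share a factor. Summed over all genes in the table, the worked-back reads were 14739221 and 12778044 (Tox4) and 19008803 and 14998194 (Luc). Replicates differed by more than counting noise (chi-square per degree of freedom 1.92 for Tox4 and 1.62 for Luc).

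Genes averaging 1 FPKM or more were tested on log2(FPKM + 1) with limma 3.58.1 in R 4.3.3 (moderated test, two-sided, intensity trend, no covariate, Benjamini-Hochberg over 12403 genes, threshold 0.05). Fold changes are Tox4 over Luc on that log2 scale, where changes of low genes come out too small. The script was tested on simulated data. C2H2 fingers were counted as 2 to 4 residues between the cysteines, 12 before the first histidine and 3 to 5 between the histidines; the KRAB-like stretch is a letter pattern. Coordinates and exons are from GENCODE, promoters from RefSeq GRCm38.p6. Named were all called members, the 10 most abundant, the role groups, and the 5 largest rises and falls that did not pass. The members and lists were chosen with earlier results of these data known. Alternatives were 2 pseudocounts, filters, no trend, centring, quantile normalization, voom, the replicate number as a block and each library left out.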

Additional observations from a re-analysis of the deposited data

How the results depend on the processing

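The counts of called Zfp genes were the least stable results. The number higher (4) was 16 with voom, 8 with a minimum of 5 FPKM (4.03% over all genes so tested) and 0 without the intensity trend (0.266%), and between 0 and 5 with 1 library left out. The number lower (2) was 7 with voom, 4 with a minimum of 5 FPKM (5.25%), 1 with no filter (1.34%), 0 without the trend (0.363%) and between 0 and 5 with 1 library left out. It was 1 among members with no exon overlap, an alternative chosen after seeing the data, as was the minimum counted length of 500 bases. Of the cofactors, voom called 2 higher (background 5.97%) and 1 lower (background 5.87%), and quantile normalization 1 higher, Trim28 (background 1.98%). With the replicate block, 5 members were higher (1.79% over all genes) and 3 lower (2.69%). Deviations of same-numbered libraries had a correlation of -0.04 across genes. Counting noise enters that value, so that it cannot exclude a pairing of libraries with the same number, and the labels do not name one. With the other pseudocounts, centring and quantile normalization, 4 or 5 members were higher and 2 lower. Over all genes these settings called between 1.73% and 1.98% higher and between 2.35% and 2.58% lower. Under the alternatives run for each, the Tox4 log2 fold change lay between -0.96 and -0.86 and past the threshold, the family median between 0.01 and 0.02, and the log2 ratio of summed levels between 0.01 and 0.03. Log2 fold changes near 0 changed sign for 17 named genes, none of them called. Zfp598 was 0.0024 with quantile normalization and Zfp36l2 0.012 with voom. With 1 library left out the ranges were Zfp207 -0.0078 to 0.022, Zfp106 -0.13 to 0.0015, Zfp512 -0.015 to 0.039, Zfp598 -0.017 to 0.014, Zfp692 -0.012 to 0.021, Zfp622 -0.11 to 0.022, Zfp830 -0.018 to 0.089, Zfp708 -0.19 to 0.068, Zfp36l2 -0.22 to 0.19, Zfp687 -0.033 to 0.061, Zfp335 -0.11 to 0.017, Zfp593 -0.00093 to 0.24, Zfp932 -0.043 to 0.13, Zfp644 -0.042 to 0.071, Zfp259 -0.065 to 0.031, Zfp809 -0.12 to 0.14 and Zfp445 -0.0016 to 0.20. The cause of these changes was not tested. Tested KRAB-like members had a median of 161 reads, against 513 for the other members with a coding sequence; tested members without one had 41.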
